A study of Mus musculus with 6 samples.

Results

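The circadian clock genes Clock, Per1, Per2, Per3, Cry1, Cry2, Nr1d1, Nr1d2, Dbp and Ciart were followed in bulk RNA-seq libraries of mouse dorsal skin. They were taken by gene symbol, and all 10 were found among the 21959 genes of the deposited table. The skin came from 7-week-old male wild-type C57BL/6 mice that were shaved in telogen, the resting phase of the hair cycle. Of these, 3 mice received vehicle (30% dipropylene glycol and 70% water) and 3 mice received 3% rebamipide, a gastric ulcer drug, on the shaved skin each day for 7 days. Each library is from a separate mouse, and the mice were housed under a light-dark cycle. The hour of day at which the skin was taken is not given in the sources used here.

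The molecular clock is a loop of transcription that runs in nearly every cell and takes about a day. CLOCK pairs with BMAL1 (the gene is listed here as Arntl) and binds E-boxes, which switches on the Per and Cry genes, Nr1d1, Nr1d2, Dbp and Ciart. PER and CRY proteins then shut the pair off, while the REV-ERB proteins made from Nr1d1 and Nr1d2 repress Arntl, Npas2 and Clock. The mRNAs therefore peak in sequence, with Arntl, Npas2 and Clock first, then Nr1d1, then Dbp and Ciart, then Per3, Per1 and Per2, and Cry1 late. In skin the clock is known from the epidermis and the hair follicle, where it sets daily rhythms of cell division.

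The libraries differed in more than the treatment. Vehicle libraries held 38676018 to 39915276 counts and rebamipide libraries 32709801 to 34706852. Levels are given as normalized CPM, the counts of a gene scaled to an equal library size with TMM factors. The summed level of 8 brown adipocyte markers was 208 to 368 CPM with vehicle and 4730 to 12600 CPM with rebamipide, and Ucp1 had 0 counts with vehicle throughout. Of these 8 genes 6 were higher and 1 was lower without overlap between groups, where 24.5% of all genes tested were higher and 24% lower in that way. Adipocyte markers (1460 to 4330 CPM with vehicle, 9920 to 17100 CPM with rebamipide) and endothelial markers (203 to 471 and 969 to 1410 CPM) also separated the groups in their summed levels, with 5 of 8 and 5 of 5 genes higher without overlap. Of the other 3 adipocyte markers 2 had negative fitted values. The share of mitochondrial counts was 2.59 to 5.36% with vehicle and 13.3 to 22% with rebamipide. The summed level of 6 keratinocyte markers, genes that define the epidermis, was 2610 to 6690 CPM with vehicle and 1920, 1130 and 3.36 CPM with rebamipide, and 4 of the 6 were lower without overlap, against the same 24% of all genes. The library labelled rebamipide 3 therefore lacked the epidermal RNA that full-thickness skin should hold, with 0 counts of Krt14. Skeletal muscle markers ranged from 4820 to 23900 CPM with vehicle and were at 30500, 6500 and 244 CPM with rebamipide. Fibroblast markers were at 12000 to 17700 CPM with vehicle and at 15100, 3500 and 1850 CPM with rebamipide. Growing hair follicle markers were highest in vehicle 1 (2910 CPM), at 1400 CPM in vehicle 2, and at 58.7 CPM or less in the other 4 libraries. In bulk tissue, a change in the share of a cell type and a change in RNA per cell cannot be told apart. Since tissue make-up and treatment moved together, they cannot be told apart here either.

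The sequences around the start sites of 9 of the 10 genes were searched for elements known to act in clock gene promoters, and 4 are printed. The windows span 250 bases before to 50 bases after the RefSeq start site (GRCm38.p6) and are printed 5′ to 3′ on the gene's strand. Capitals mark the E-box CACGTG, the variant E-box CACGTT and the cAMP response element core TGACG, each searched on both strands. Ciart (chr3:95882179-95882478) and Cry2 (chr2:92434020-92434319), both on the minus strand, are shown because they were the only clock genes here whose groups did not overlap. Nr1d1 (chr11:98775328-98775627, minus strand) had the largest fitted difference. Per1 (chr11:69098699-69098998, plus strand) holds both an E-box and the cAMP response element core, as does the window of Cry1, which is not printed.
Ciart: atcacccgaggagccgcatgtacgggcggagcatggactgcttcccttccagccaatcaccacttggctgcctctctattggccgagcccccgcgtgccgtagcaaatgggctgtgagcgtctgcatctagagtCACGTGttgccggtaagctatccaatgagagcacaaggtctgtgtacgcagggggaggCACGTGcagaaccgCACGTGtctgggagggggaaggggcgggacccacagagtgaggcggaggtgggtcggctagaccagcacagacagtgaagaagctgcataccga
Cry2: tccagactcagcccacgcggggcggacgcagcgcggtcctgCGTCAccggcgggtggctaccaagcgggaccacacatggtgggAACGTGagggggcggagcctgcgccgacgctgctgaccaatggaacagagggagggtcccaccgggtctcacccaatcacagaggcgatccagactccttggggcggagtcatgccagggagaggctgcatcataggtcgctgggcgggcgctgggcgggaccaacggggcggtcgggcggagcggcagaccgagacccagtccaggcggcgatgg
Nr1d1: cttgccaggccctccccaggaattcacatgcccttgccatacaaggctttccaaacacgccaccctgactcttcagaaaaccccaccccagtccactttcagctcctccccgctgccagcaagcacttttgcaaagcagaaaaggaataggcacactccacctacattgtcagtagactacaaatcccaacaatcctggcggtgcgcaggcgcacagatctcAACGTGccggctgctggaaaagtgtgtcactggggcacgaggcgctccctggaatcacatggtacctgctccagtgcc
Per1: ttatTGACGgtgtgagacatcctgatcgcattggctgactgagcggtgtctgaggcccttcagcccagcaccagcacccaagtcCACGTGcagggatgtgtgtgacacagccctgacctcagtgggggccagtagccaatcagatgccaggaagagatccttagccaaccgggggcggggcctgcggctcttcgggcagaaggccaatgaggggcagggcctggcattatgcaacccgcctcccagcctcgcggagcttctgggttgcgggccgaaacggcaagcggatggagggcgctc
Ciart held 3 E-boxes, which begin 116, 58 and 44 bases before the start site. Nr1d1 held the variant E-box 28 bases before its start, Cry2 held it 166 bases before, and Per1 held an E-box 166 bases before. A start site window was found for 9 of the 10 genes, and Per2 was not matched. CACGTG was in a window of Per1, Cry1 and Ciart, that is 3 of the 9, and in 7.15% of all 32851 windows. CACGTT was in windows of Cry1, Cry2 and Nr1d1, against 4.68% of all windows. TGACG was in windows of Per1, Cry1 and Cry2, against 20.8% of all windows. The REV-ERB and ROR elements TAGGTCA and TGGGTCA were in the windows of 0 of the 9 genes, and in 2.61% and 3.98% of all windows. A match of letters is a description of the window, not of binding.

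None of the 10 clock genes differed between rebamipide and vehicle at an adjusted p-value under 0.05 in edgeR's quasi-likelihood test. Over all 14875 genes tested, 20.6% passed that threshold. At an unadjusted p-value under 0.05 there were 2 of the 10, Per3 and Cry2, against 39.7% of all genes. DESeq2 called 0 of the 10 as well, with a smallest adjusted p-value of 0.0794, where it called 31.7% of all genes. The study called a gene by p under 0.05 without adjustment together with a log2 fold change beyond 1 in either direction. By that rule edgeR gave 0 of the 10, against 28.8% of all genes tested, of which 14.3% were higher and 14.5% lower. With the p-values of DESeq2, the tool the study used, 1 of the 10 passed it, Per3 (log2 fold change 1.001, unadjusted p = 0.0291). In DESeq2 6847 of 17835 genes had an unadjusted p under 0.05, and the share that also passed the fold threshold is not given here. The fitted log2 fold change was positive for 9 of the 10 genes and negative for Ciart. Their median was 0.485, where the median over all genes tested was -0.175. With scaling by total counts alone both medians moved down, to -0.117 and -0.778, and 4 of the 10 genes stayed positive. The groups did not overlap for 2 of the 10 genes, against 48.5% of all genes tested. The 95% interval reached past a log2 fold change of 1 in at least 1 direction for 9 of the 10 genes, all but Cry1, so differences of that size lie within the error of these libraries.

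**Figure D1:**
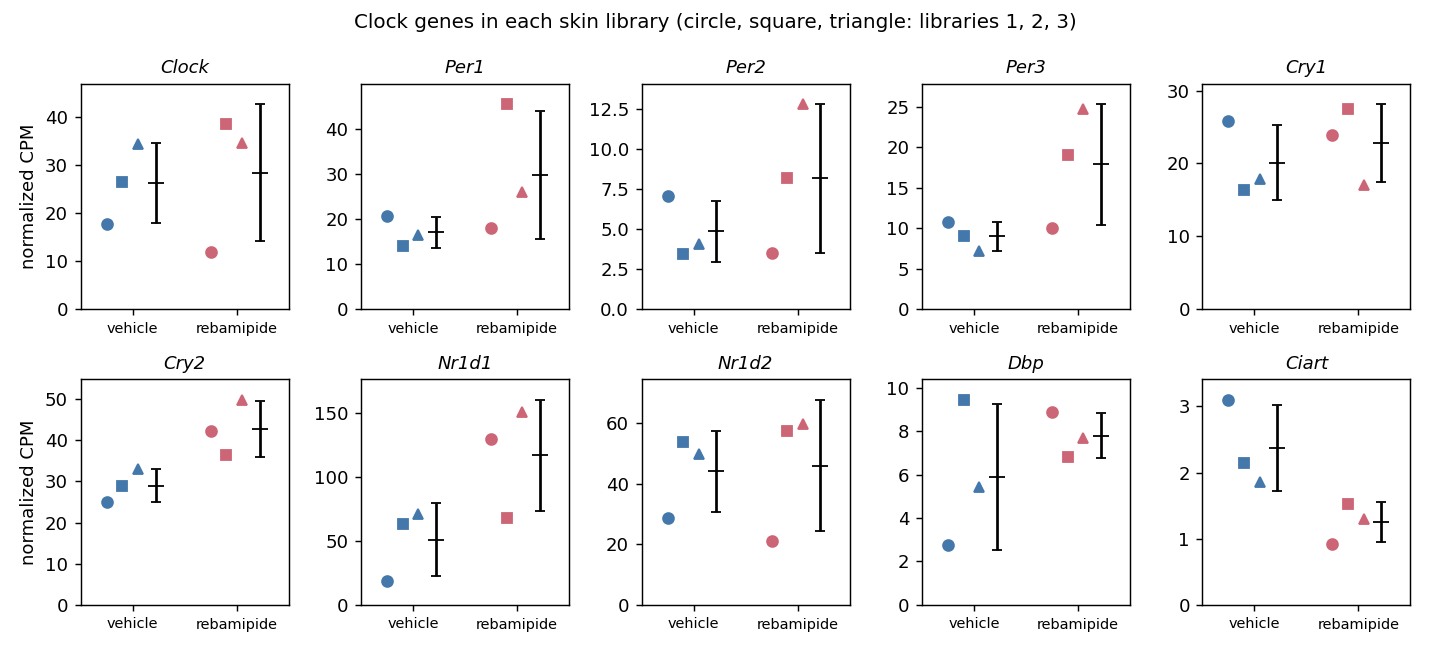
Normalized CPM (y axis, from 0) of the 10 clock genes in the 3 vehicle libraries (blue) and the 3 rebamipide libraries (red), with circle, square and triangle for libraries 1, 2 and 3 and black bars for the mean ± SD. Cry2 lies higher and Ciart lower in every rebamipide library, and the groups overlap for the other 8 genes.

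Clock encodes the DNA-binding partner of BMAL1. It was at 17.7, 26.5 and 34.3 normalized CPM in vehicle libraries 1, 2 and 3 and at 12, 38.6 and 34.7 CPM in rebamipide libraries 1, 2 and 3. Rebamipide 1 was the lowest and rebamipide 2 the highest of all 6, and the fitted log2 fold change was 0.12 (95% interval -1.05 to 1.29, adjusted p = 0.869, edgeR). Its partner Arntl was at 24.5, 33.6 and 44.6 CPM with vehicle and at 37, 36.9 and 31.2 CPM with rebamipide. The rebamipide values of Arntl lay inside the vehicle range, with a log2 fold change of 0.03 and a 95% interval of -0.6 to 0.66. Npas2, a relative of Clock that can take its place, was at 2.7, 7.61 and 9.15 CPM with vehicle and at 11.2, 7.6 and 4.81 CPM with rebamipide. Vehicle 1 had the lowest level of Arntl and Npas2 of all 6 libraries.

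The Per genes encode the inhibitors that build up towards dusk. Per1, which also responds quickly to glucocorticoids and cAMP, was at 20.7, 13.9 and 16.4 CPM with vehicle and at 17.9, 45.4 and 25.9 CPM with rebamipide. Rebamipide 2 and 3 lay above all vehicle libraries and rebamipide 1 lay among them (fitted log2 fold change 0.80, 95% interval -0.13 to 1.73, adjusted p = 0.169, edgeR). Per2 was at 7.05, 3.45 and 4.04 CPM with vehicle and at 3.52, 8.18 and 12.8 CPM with rebamipide. Its groups overlapped through rebamipide 1, which was at the level of vehicle 2 and 3 (log2 fold change 0.75, 95% interval -0.57 to 2.07). Per3 was at 10.8, 9.06 and 7.16 CPM with vehicle and at 9.98, 19.1 and 24.8 CPM with rebamipide. Here too rebamipide 2 and 3 were above all vehicle libraries, and rebamipide 1 lay between vehicle 1 and vehicle 2. The fitted log2 fold change of Per3 was 0.99 (95% interval 0.06 to 1.93). It had an unadjusted p of 0.041 and an adjusted p of 0.111 in the edgeR fit over all genes. DESeq2 and RLE scaling placed Per3 just past the study's fold threshold, with log2 fold changes of 1.001 and 1.003.

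For all 3 Per genes the highest libraries were thus rebamipide 2 and 3. These also held less fibroblast RNA (3500 and 1850 CPM) and less muscle RNA (6500 and 244 CPM) than rebamipide 1 (15100 and 30500 CPM). Keratinocyte markers were lower in them too (1130 and 3.36 against 1920 CPM), and brown adipocyte markers (12600 and 10200 against 4730 CPM) and adipocyte markers (14500 and 17100 against 9920 CPM) were higher. The part of these in the Per levels was not tested. Without rebamipide 1 all 3 passed the thresholds of the study, with log2 fold changes of 1.07, 1.12 and 1.29, and Per3 passed after adjustment (adjusted p = 0.0265, edgeR). In that fit 2810 of 15345 genes (18.3%) were higher after adjustment, against 2093 of 14875 (14.1%) with all libraries. At an unadjusted edgeR p under 0.05 there were 7314 genes, against 5901. The share of all genes passing the thresholds of the study in that fit is not given here. Per1 and Per2 did not pass after adjustment (adjusted p = 0.0616 and 0.103, edgeR). Without rebamipide 3, the library that lacked epidermal RNA, the log2 fold changes were 0.90, 0.28 and 0.70, and the adjusted p-values of edgeR were 0.222 or more. Without rebamipide 2 that of Per1 was 0.37. With scaling by total counts alone the log2 fold changes of Per1, Per2 and Per3 were 0.14, 0.067 and 0.327. With limma on log2(FPKM + 1) they were 0.082, 0.023 and 0.174. The fitted size of the Per differences therefore moved with single rebamipide libraries and with the scaling.

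The Cry genes encode the repressors that complete the loop. Cry1 was at 25.9, 16.3 and 17.9 CPM with vehicle and at 23.9, 27.5 and 17 CPM with rebamipide, so that the groups covered nearly the same range. Its log2 fold change was 0.18 with a 95% interval of -0.52 to 0.89. Cry2 was at 24.9, 28.8 and 32.9 CPM with vehicle and at 42.2, 36.3 and 49.8 CPM with rebamipide. Cry2 was the only clock gene whose rebamipide values all lay above its vehicle values, against 24.5% of all genes tested that were higher without overlap. The mean of Cry2 went from 28.9 ± 4 to 42.8 ± 6.8 CPM (SD, n = 3 libraries each). The fitted log2 fold change was 0.57 (95% interval 0.06 to 1.07), and the unadjusted p of 0.0339 became 0.099 after adjustment in edgeR. With scaling by total counts alone the log2 fold change of Cry2 was -0.05, so its direction depends on how the libraries are scaled. Cry2 varied little within groups, with the highest library 1.32 times the lowest among vehicle and 1.37 times among rebamipide.

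Nr1d1 and Nr1d2 encode the REV-ERB repressors, which also bind heme and act on lipid genes. Nr1d1 was at 18.5, 63 and 71.4 CPM with vehicle and at 130, 68 and 151 CPM with rebamipide. Vehicle 1 was far below the rest, and the groups overlapped through rebamipide 2 alone. The fitted log2 fold change of 1.19 was the largest of the 10, with a standard error of 0.56 (95% interval -0.15 to 2.54, adjusted p = 0.161, edgeR). Without vehicle 1 it was 0.77, and without rebamipide 2 it was 1.47. The log2 fold change of Nr1d1 was 0.607 with total counts alone and 0.674 with limma on log2(FPKM + 1). Nr1d2 was at 28.8, 53.8 and 49.7 CPM with vehicle and at 20.9, 57.4 and 59.5 CPM with rebamipide. The low library of Nr1d2 was vehicle 1 in the vehicle group and rebamipide 1 in the rebamipide group, and the log2 fold change was 0.06 (95% interval -1.04 to 1.15). The levels of the paralogs were farthest apart in rebamipide 1, where the counts of Nr1d1 were 6.25 times those of Nr1d2, and less so in rebamipide 3 (2.54 times), while rebamipide 2 (1.18 times) lay within the 0.641 to 1.44 times of the vehicle libraries. Rebamipide 1 had the most and rebamipide 3 the least skeletal muscle RNA of all 6 libraries, and the part of this in the ratio was not tested.

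Dbp encodes a transcription factor that carries the rhythm to output genes through D-boxes. It was at 2.76, 9.44 and 5.45 CPM with vehicle and at 8.89, 6.82 and 7.67 CPM with rebamipide. All rebamipide values fell inside the vehicle range, and the log2 fold change was 0.40 (95% interval -0.74 to 1.55, adjusted p = 0.543, edgeR). Without vehicle 1 it was 0.051 and without vehicle 2 it was 0.892. Ciart, also called Chrono, encodes a repressor of CLOCK and BMAL1. It was at 3.1, 2.15 and 1.86 CPM with vehicle and at 0.922, 1.52 and 1.3 CPM with rebamipide, from 155, 106 and 87 counts and from 28, 39 and 34 counts. All its rebamipide values lay below all its vehicle values, against 24% of all genes that were lower without overlap. Its mean went from 2.37 ± 0.651 to 1.25 ± 0.302 CPM (SD, n = 3 libraries each). The fitted log2 fold change was -0.93 (95% interval -1.9 to 0.05), and the unadjusted p of 0.0588 became 0.139 after adjustment in edgeR. With scaling by total counts alone Ciart passed the edgeR test as lower, at -1.58 on the log2 scale with an adjusted p of 0.0298, and with limma on log2(FPKM + 1) it was called lower as well (adjusted p = 0.0179). These fits called 25.2% and 32.3% of all genes lower. Ciart was the only clock gene with a negative fold change in every one of the 16 alternatives, from -1.58 to -0.67.

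**Figure D2:**
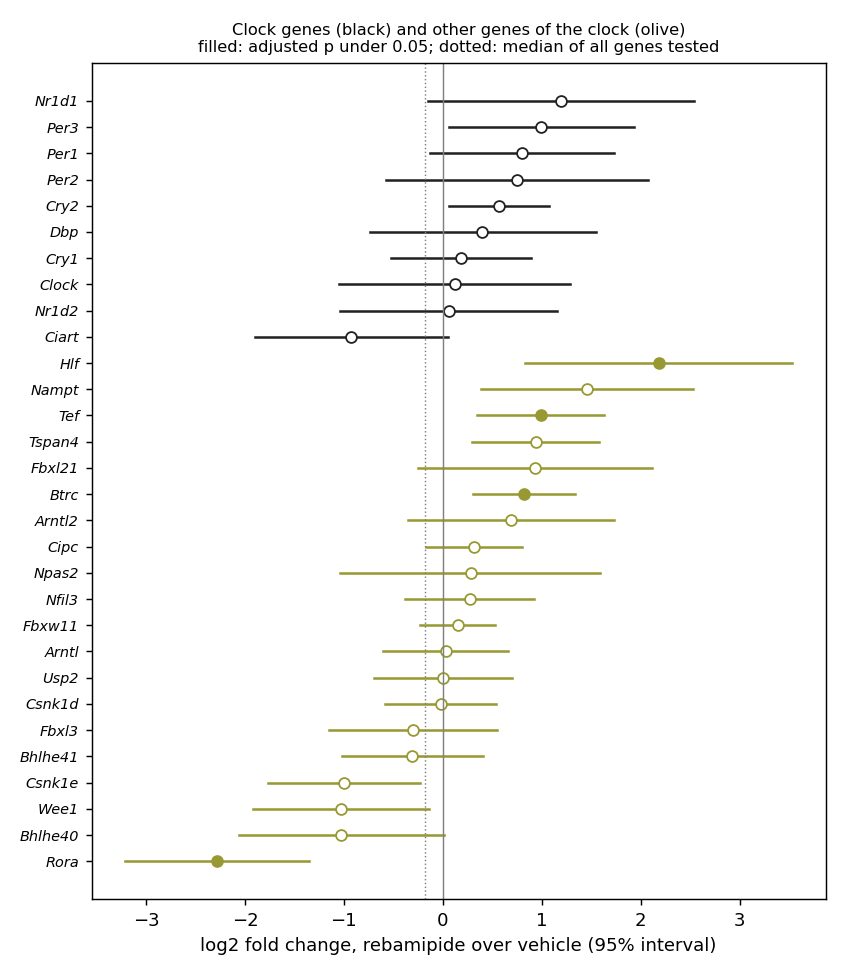
Log2 fold change of rebamipide over vehicle (x axis) with its 95% interval for the 10 clock genes (black) and 20 other genes of the clock (olive), filled where the adjusted p-value is under 0.05. No black point is filled, and the filled olive points are Hlf, Tef and Btrc on the higher side and Rora on the lower side.

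Levels of different clock genes were compared per length, with the deposited FPKM. Nr1d1 was the most abundant clock gene in 5 of the 6 libraries, from 7.67 to 39.4 FPKM, and Cry1 was in vehicle 1. By the vehicle mean, Nr1d1 (20.3 ± 11.1 FPKM) was followed by Nr1d2 (10.1 ± 2.88), Cry1 (7.48 ± 2.11), Cry2 (5.66 ± 0.631) and Per1 (3.76 ± 0.848). Below these were Dbp (2.42 ± 1.37), Clock (2.35 ± 0.69), Ciart (1.31 ± 0.397), Per3 (1.17 ± 0.265) and Per2 (1.03 ± 0.44). Neighbours in this order differed by less than the SD of at least the more variable of them, apart from Cry2 above Per1 and Clock above Ciart. The rebamipide means kept this order except for Ciart, which went to the end at 0.438 ± 0.0617 FPKM. The lowest clock gene was Dbp in vehicle 1, Per2 in vehicle 2 and 3, and Ciart in all 3 rebamipide libraries. Dbp was thus in place 10 in vehicle 1 and in places 5 to 7 in the other libraries.

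Whether the phases of the groups agree was examined with ratios of counts between clock genes of the same library, which do not depend on scaling. A single sampling time cannot give a phase, but genes that peak at different hours move against each other when the phase shifts. Such ratios can also move with tissue make-up, which differed between the groups here, and the part of this was not tested. For all 8 ratios the groups overlapped, and the smallest p-value of the two-sided exact permutation test was 0.2 (adjusted p = 0.8 over the 8 ratios), where 3 libraries against 3 allow 0.1 at the least. The log2 ratio of Nr1d1 to Arntl, a pair of opposite phase, was -0.41, 0.91 and 0.68 with vehicle and 1.82, 0.88 and 2.28 with rebamipide. Rebamipide 2 lay just below vehicle 2, and the means differed by 1.27 (exact permutation p = 0.2). Without rebamipide 2 they differed by 1.66 (exact permutation p = 0.1). Without any other single library they differed by 0.87 to 1.52 (exact permutation p = 0.2 to 0.3). With Npas2 in place of Arntl, a pair outside the 8 ratios, the groups did not overlap. Its values were 2.77, 3.05 and 2.96 with vehicle and 3.54, 3.16 and 4.97 with rebamipide. That difference of 0.96 had an exact permutation p of 0.1, the smallest that 3 against 3 can give, so it could not pass 0.05. The same swap in the ratio of Per2 to Arntl gave a difference of 0.26 (exact permutation p = 0.9). The log2 ratio of Nr1d1 to Nr1d2 also differed by over 1, with means of 0.04 ± 0.61 and 1.41 ± 1.2 (SD, n = 3 libraries each). That difference of 1.38 was 0.76 without rebamipide 1 and 1.96 without rebamipide 2. Of the 8 ratios, Nr1d1 to Arntl and Nr1d1 to Nr1d2 had the largest differences towards rebamipide, and they shared Nr1d1.

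The spread within groups was as large as most differences between them. The log2 ratio of Per2 to Nr1d1, a gene of dusk against a gene of earlier day, was -1.39, -4.19 and -4.14 with vehicle and -5.21, -3.05 and -3.56 with rebamipide. Vehicle 2 and 3 were nearly equal, at 0.0548 and 0.0566 Per2 reads for each Nr1d1 read, and vehicle 1 stood apart at 0.382. The log2 ratio of Cry1 to Nr1d1 was 0.49, -1.95 and -1.99 with vehicle and -2.45, -1.3 and -3.15 with rebamipide, so that Cry1 outnumbered Nr1d1 in vehicle 1 alone. Vehicle 1 was also highest of the vehicle libraries for Per1, Per2, Per3, Cry1 and Ciart and lowest for Arntl, Npas2, Clock, Nr1d1, Nr1d2, Dbp and Cry2. When vehicle 1 was left out, the difference in Per2 to Nr1d1 went from -0.7 to 0.22 and that in Cry1 to Nr1d1 from -1.15 to -0.33. Vehicle 1 had the most growing hair follicle RNA and the least skeletal muscle RNA of the vehicle libraries, and the part of these in its clock gene profile was not tested.

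**Figure D3:**
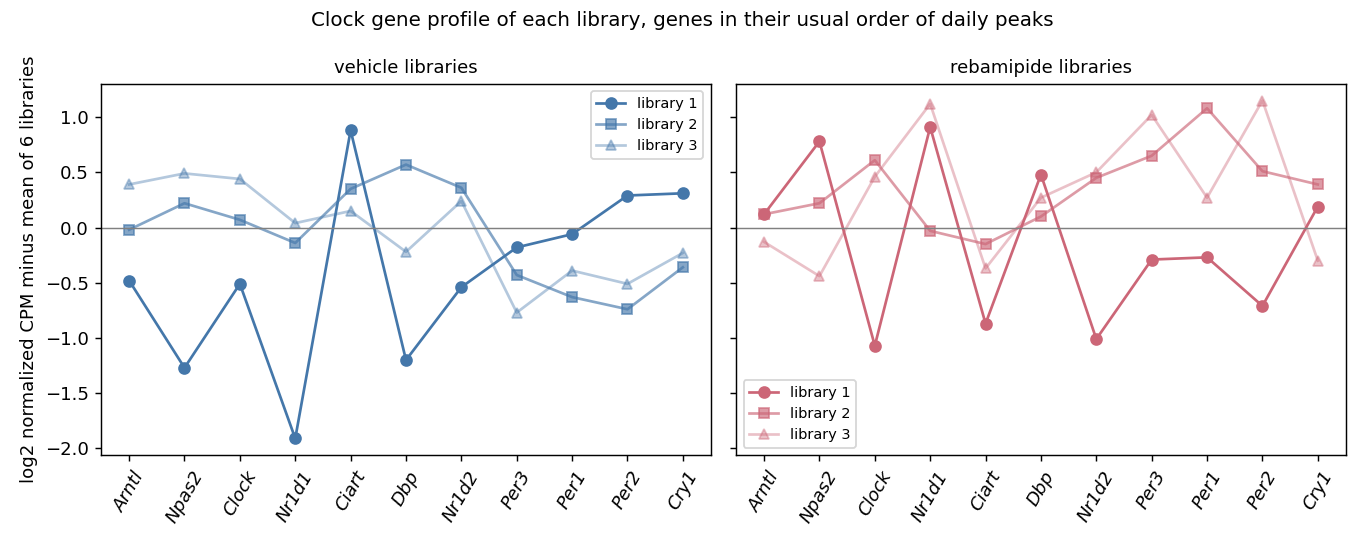
Log2 normalized CPM of 11 clock genes minus the mean of the 6 libraries (y axis), with genes on the x axis in their usual order of daily peaks, for the vehicle libraries (left) and the rebamipide libraries (right). Vehicle 1 is at -1.91 for Nr1d1 and 0.31 for Cry1, where vehicle 2 is at -0.14 and -0.36 and vehicle 3 at 0.04 and -0.23, and rebamipide 1 is below rebamipide 2 and 3 at the Per genes.

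The rebamipide libraries did not share a profile either. The log2 ratio of Per2 to Arntl was -3.39 in rebamipide 1, -2.17 in rebamipide 2 and -1.29 in rebamipide 3, against -1.8, -3.28 and -3.46 in the vehicle libraries. Rebamipide 1 was with vehicle 2 and 3, and vehicle 1 was with rebamipide 2 and 3. The log2 ratio of Per1 to Per2 was 2.34, 2.47 and 1.02 with rebamipide and 1.55, 2.01 and 2.02 with vehicle, with means that differed by 0.08. The ratios of Dbp differed by 0.5 against Arntl and 0.2 against Npas2, each less than the SD of the vehicle libraries (0.73 and 0.55). Without vehicle 2 the difference against Arntl was 0.92 (exact permutation p = 0.1), and without vehicle 1 it was 0.26. Within the vehicle group the highest library of Nr1d1 was 3.87 times the lowest, and that of Dbp was 3.42 times, where the median was 1.77 times over the 10 clock genes and 1.65 times over all genes tested. Within the rebamipide group Per2 had the widest range, 3.63 times, and Clock followed with 3.21 times, where the median was 2.35 times over the 10 clock genes and 1.63 times over all genes. Dbp, the second most variable with vehicle, ranged over 1.3 times with rebamipide.

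**Figure D4:**
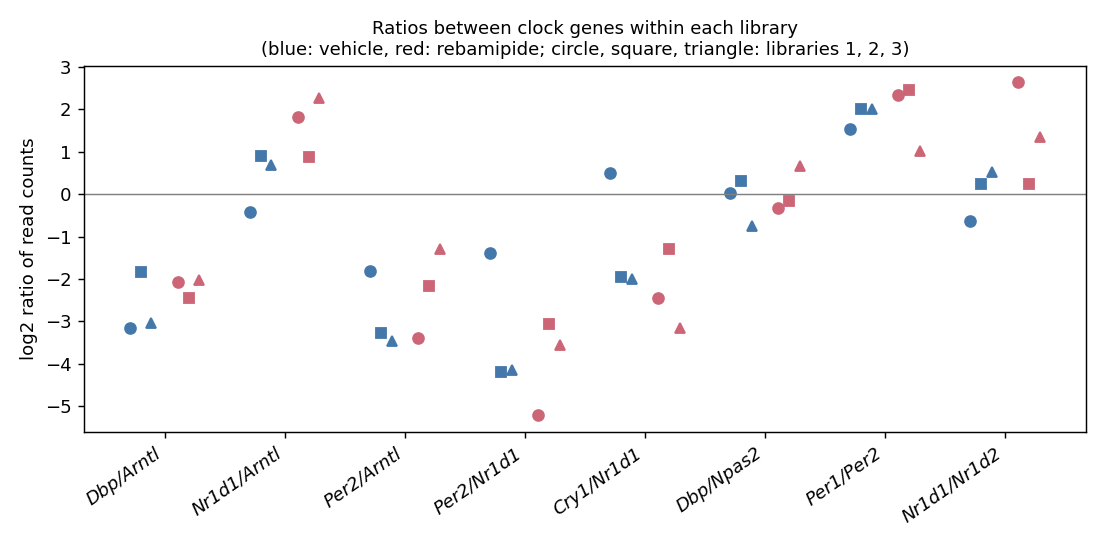
Log2 ratio of read counts (y axis) for 8 pairs of clock genes (x axis) in each vehicle library (blue) and each rebamipide library (red), with circle, square and triangle for libraries 1, 2 and 3. The colours overlap for every pair, and vehicle 1 (blue circle) stands apart for Per2/Nr1d1 and Cry1/Nr1d1.

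Of the other genes of the clock, 21 from a list were in the table and 20 were tested. Rorb, at 5 to 18 counts, did not pass the filter on low counts. At an adjusted p-value under 0.05 in edgeR, 3 of the 20 were higher and 1 was lower, against 14.1% and 6.51% of all genes tested. Hlf and Tef, which encode D-box activators of the same family as Dbp, were higher in every rebamipide library. Hlf was at 6.61, 15.9 and 10 CPM with vehicle and at 20.3, 54.1 and 73.4 CPM with rebamipide (fitted log2 fold change 2.18, 95% interval 0.83 to 3.53, adjusted p = 0.0415, edgeR). Tef was at 60.7, 97.1 and 81.7 CPM with vehicle and at 122, 165 and 188 CPM with rebamipide (fitted log2 fold change 0.99, 95% interval 0.35 to 1.63, adjusted p = 0.0461). Dbp itself was not called, and whether Hlf and Tef differed from Dbp in their response was not tested. Nfil3, which encodes the repressor that competes for D-boxes, had overlapping groups (log2 fold change 0.27, adjusted p = 0.473, edgeR).

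Rora, which encodes a ROR activator that opposes the REV-ERBs at Arntl, was lower in every rebamipide library. It was at 38.1, 75.3 and 77.1 CPM with vehicle and at 11.9, 17.9 and 9.5 CPM with rebamipide, and fell by 2.28 on the log2 scale (standard error 0.38, adjusted p = 0.0147, edgeR). Btrc, which encodes a ubiquitin ligase subunit that targets PER proteins, was at 11.6, 12.8 and 15 CPM with vehicle and at 22.4, 21.6 and 25.6 CPM with rebamipide (log2 fold change 0.82, adjusted p = 0.0422, edgeR). Csnk1e, whose kinase marks PER proteins for decay, had a log2 fold change of -1 (adjusted p = 0.0692). Bhlhe40, which encodes an E-box repressor, had a log2 fold change of -1.03 and overlapping groups (adjusted p = 0.128, edgeR). Over the list 9 of the 20 genes did not overlap between groups, against 48.5% of all genes tested. Of the 4 output genes Usp2 overlapped, and Nampt, Tspan4 and Wee1 did not, with log2 fold changes of 1.46, 0.94 and -1.03, and none passed after adjustment (adjusted p = 0.0523 to 0.0917, edgeR).

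The calls of these genes depended on single libraries and on the scaling. Without vehicle 2 edgeR called 0 of the 20 genes and 0 genes over the whole table, although 4116 genes had an unadjusted p-value under 0.05. Without rebamipide 2 it called 0 of the 20 and 1 gene over the whole table. The adjusted p-value of Rora was 0.0788 and 0.0573 in these fits. DESeq2 called 5 of the 20 higher and 3 lower, against 16.2% and 15.5% of all genes with an adjusted p-value in DESeq2. The added genes were Nampt and Tspan4 on the higher side and Csnk1e and Wee1 on the lower side. With total counts alone Hlf, Tef and Btrc were not called, at log2 fold changes of 1.51, 0.355 and 0.207 (adjusted p = 0.0592, 0.216 and 0.427, edgeR), nor were they with log2(FPKM + 1), while Rora was called with both. Without rebamipide 3, Rora was still called (adjusted p = 0.0393), and Hlf, Tef and Btrc were not (adjusted p = 0.0917, 0.126 and 0.134, edgeR). Of the 6 fits that left out 1 library, Hlf, Tef and Btrc were called in 1, that without rebamipide 1, and Rora was called in 4.

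Signals known to act on Per1 from outside the clock were read in the same libraries. Of 5 glucocorticoid target genes, 4 had positive and 1 had a negative fitted value, and 1 was called higher, against 14.1% of all genes tested. This was Sgk1, at 77.3, 95.9 and 84.3 CPM with vehicle and at 120, 291 and 216 CPM with rebamipide (adjusted p = 0.0463, edgeR). Zbtb16, another glucocorticoid target, had a log2 fold change of 1.67 (adjusted p = 0.109, edgeR). With Sgk1 it made 2 of the 5 that were higher without overlap, against 24.5% of all genes tested. The groups overlapped for Fkbp5, Tsc22d3 and Klf9, with log2 fold changes of -0.61, 0.19 and 0.99. Of 9 immediate early genes, which respond to stress and handling within minutes, 3 had an unadjusted p-value under 0.05 by edgeR, against 39.7% of all genes tested, and 2 had positive and 7 negative fitted values, with a median log2 fold change of -1.07. Junb had the smallest adjusted p-value of them, with a log2 fold change of -1.62 (adjusted p = 0.0532, edgeR). The part of either signal in the level of Per1 was not tested.

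The 5 genes whose levels followed Dbp most closely over the 6 libraries were Fbxl13, Mtus2, Klhl6, Pced1b and Smpd5, with Pearson correlations of log2 CPM from 0.929 to 0.979. These are a description of 6 libraries that share depth and tissue make-up, and Fbxl13, Smpd5 and Mtus2 are low, at 0.12 to 0.569, 0.1 to 0.572 and 0.16 to 0.731 CPM. Among the other 9 of the 10 clock genes Nr1d1 was closest to Dbp (r = 0.84) and Ciart the most opposed (r = -0.721). Part of the reads of some genes cannot be assigned with certainty. In the deposited table Nr1d1 (ENSMUSG00000020889, chromosome 11, 98658758 to 98666159, GRCm39) shares 1075 bases with Thra on the other strand. Dbp (ENSMUSG00000059824, chromosome 7, 45354512 to 45359627) shares 737 bases with Sphk2 on the other strand, and Per3 lies within the span of Camta1 on its own strand. Cry2 (ENSMUSG00000068742, chromosome 2, 92233991 to 92264388) and Ciart (ENSMUSG00000038550, chromosome 3, 95785815 to 95789563) overlap no other gene of the table.

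**Figure D5:**
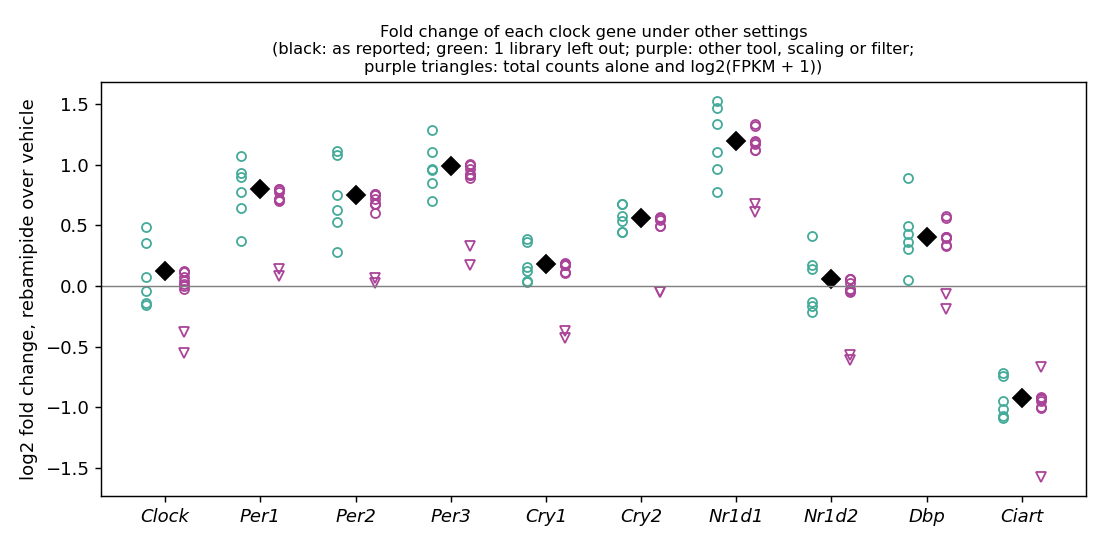
Log2 fold change of rebamipide over vehicle (y axis) for each of the 10 clock genes (x axis) as reported (black), with 1 library left out (green), and with another tool, scaling or filter (purple, triangles for total counts alone and for log2(FPKM + 1)). Ciart stays below 0 and the 3 Per genes and Nr1d1 stay above 0 throughout. The triangles lie lowest for every gene but Ciart.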

How the data were processed

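RNA-seq libraries of dorsal skin (3 vehicle, 3 rebamipide) were made by the authors from poly-A RNA. The authors deposited, in 1 table, raw read counts per gene and FPKM. The deposited FPKM equal the counts divided by gene length and by the total of the library. The submitters' processing notes name fastp 0.22.0, HISAT2 2.1.0, HTSeq 0.9.1 and GRCm39, and the strand setting of the counting is not given in the sources used here. The counts were tested with edgeR 4.0.16 under R 4.3.3 (TMM scaling, filterByExpr, quasi-likelihood test, Benjamini-Hochberg adjustment over 14875 genes). Standard errors and 95% intervals were derived from the F statistic. Normalized CPM use the TMM factors. With total counts of 32709801 to 39915276, a count of 0 allows 3 counts, or 0.0752 to 0.0917 CPM before scaling, for counting error only. Ratios were tested with a two-sided exact permutation test. Alternatives were DESeq2 1.42.0, limma-voom (limma 3.58.1), other scalings and filters, limma on log2(FPKM + 1), a replicate block and each library left out. The tests of single genes were checked on simulated counts with the same spread set for every gene, and the permutation test was not. Replicates of a group did not agree within sampling noise (chi-square divided by its degrees of freedom, 79.1 to 714), and p-values measure the spread between 3 mice a group. Named were the 10 genes, a list of other clock genes, the 5 glucocorticoid targets, the immediate early gene with the smallest p-value, and the 5 genes most like Dbp. The summed levels of 7 marker lists are given, with Ucp1 and Krt14 named after their values were seen. Of the list of other clock genes, 1 gene is not reported here. Members and lists were chosen with earlier results of these data known. Promoter windows are from RefSeq on GRCm38.p6 and gene positions from the table, and these were not mixed.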

Additional observations from a re-analysis of the deposited data

How the results depend on the processing

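Of 160 fold changes of the 10 clock genes under the 16 alternatives, 136 kept their direction and their side of the threshold, 21 reversed and 3 became called. Of 192 for 12 other genes of the clock, 130 were kept, 13 reversed, 30 lost their call and 19 gained one. By the thresholds of the study, 1 clock gene (Per3) was higher with DESeq2 and 1 with RLE scaling. On the lower side 1 (Ciart) passed them with upper quartile scaling, 1 with total counts alone and 1 with at least 10 counts in every library. The share of all genes passing these thresholds is given for the fit as reported alone. After adjustment 1 (Ciart) was lower with total counts alone and 1 with log2(FPKM + 1). Of the 20 other genes, 3 were called higher and 1 lower as reported, against 5 and 3 with DESeq2, 0 and 4 with total counts alone, 5 and 2 with at least 10 counts, and 0 and 5 with log2(FPKM + 1). Over all genes the shares called higher and lower were 14.1% and 6.51% as reported, 16.2% and 15.5%, 8.46% and 25.2%, 17% and 11.9%, and 9.42% and 32.3% in the same order. Of the 20, 1 was higher with upper quartile scaling (13.2% of all genes) and 1 without a filter (10.7%). By the thresholds of the study 1 was higher with total counts alone and 1 with log2(FPKM + 1), against 2. With total counts alone the log2 fold change was -0.55 for Clock, -0.433 for Cry1, -0.047 for Cry2, -0.609 for Nr1d2, -0.187 for Dbp, -0.569 for Arntl, -0.281 for Npas2 and -0.371 for Nfil3. With log2(FPKM + 1) it was -0.38, -0.374, -0.048, -0.574, -0.066, -0.452, -0.157 and -0.305 for the same genes. The median over all genes was -0.778 and -0.459 in these fits, against -0.175. Clock was at -0.022 and Nr1d2 at -0.051 with limma-voom, Nr1d2 at -0.04 and Arntl at -0.048 with upper quartile scaling, and Nr1d2 at -0.024 and Arntl at -0.04 with at least 10 counts. Replicate numbers did not pair the mice (correlations of same-numbered deviations -0.038 to 0.003, and not every library was closest to its own number). The fit with the replicate block called 1432 genes higher and 855 lower, against 2093 and 968, put Nr1d2 at -0.037 and the adjusted p of Btrc at 0.0808 and of Nampt at 0.0378, and had 1 other gene lower by the thresholds of the study, against 3. With 1 library left out, 0 to 1 clock genes were higher after adjustment and 0 to 3 by the thresholds of the study, all without rebamipide 1 save Per3 without vehicle 1. Of the other genes 0 to 5 were higher and 0 to 2 lower after adjustment, and 1 to 4 higher and 1 to 3 lower by the thresholds of the study. Over all genes these fits called 0 to 18.3% higher and 0 to 12.8% lower after adjustment. The log2 fold change ranged from -0.158 to 0.49 for Clock, -0.213 to 0.41 for Nr1d2, 0.051 to 0.892 for Dbp, -0.186 to 0.279 for Arntl and -0.108 to 0.625 for Npas2, and the log2 ratio difference from -1.18 to 0.22 for Per2/Nr1d1, 0.26 to 0.92 for Dbp/Arntl, -0.11 to 0.42 for Dbp/Npas2 and -0.18 to 0.54 for Per1/Per2. The cause of these shifts was not tested. Depth limits Ciart most, at 28 to 39 counts in the rebamipide libraries, and 3 mice a group at 1 time leave phase unmeasured.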
